A study of Mus musculus with 6 samples.

Results

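The RNA levels of the cytosolic ribosomal proteins, the protein subunits of the ribosome that works in the cytoplasm, were compared between 2 culture media in cells from the bulge of mouse whisker follicles. The genes were chosen by their symbols, with earlier results of these data known. They were those named Rpl or Rps with a number, together with the Rplp genes of the P-stalk, and without the Rps6k kinases. This gave 48 genes of the 18193 that could be read from probe sets listed with a single gene symbol. They comprised 20 of 43 listed proteins of the large subunit, 2 of 3 of the P-stalk and 20 of 30 of the small subunit. The remaining 6 were paralogs, which are close relatives of a standard ribosomal protein encoded by a gene of their own. Rplp1, Rpl3, Rpl10, Rpl10l, Rpl24 and Rpl5 had no probe set under their name alone and were not analysed here.

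Hair follicle bulge cells from vibrissae (whiskers) of mice aged 7 to 8 weeks were suspended in atelocollagen at 1% and cultured for 6 days in NFFSE or NFFS medium. Both media held Noggin, an inhibitor of BMP signaling, the growth factors FGF-7 and FGF-10, and SAG, which activates hedgehog signaling, all of them at 50 ng/ml. Only NFFSE contained EGF, at a dose of 50 ng/ml, so that the comparison asks what differs with EGF in the medium. The bulge is the part of the follicle that houses its stem cells, and all cells of the bulge, not a sorted population, had been put into culture. The experiment was performed 3 times, and the labels call the 6 arrays, 3 for each medium, biological replicates. The sources used here do not tie a mouse strain to these arrays.

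A ribosome consists of ribosomal RNA and one copy of most of its proteins, which are made in matched amounts and assembled in the nucleolus with the help of a large set of assembly factors. In many of these genes the messenger RNA starts with a C and a run of pyrimidines, the TOP motif, through which mTORC1 signaling acts mainly on its translation and less on its level. Growth factors such as EGF raise ribosome production in many cell types, in part through RNA polymerase I, which copies the ribosomal RNA genes.

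The start of the gene is shown for several members because this run of pyrimidines is the sequence feature by which their messenger RNAs are known. RefSeq start windows (GRCm38.p6) were found for 42 of the 48 genes, with 50 windows in all. Rps4l, Rps20, Rpl8, Rps29, Rps14 and Rpl7 were not in the table. Each line gives 30 bases on the strand of the gene, with 10 bases before the annotated start, and capitals mark the run of C and T that begins with a C within 5 bases of the start:
Rpl27a, chr7:109519185-109519214, plus strand: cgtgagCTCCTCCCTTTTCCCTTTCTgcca
Rpl35, chr2:39005112-39005141, minus strand: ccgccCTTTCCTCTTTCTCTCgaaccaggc
Rpl13a, chr7:45128726-45128755, minus strand: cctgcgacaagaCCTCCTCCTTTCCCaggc
Rps10, chr17:27635225-27635254, minus strand: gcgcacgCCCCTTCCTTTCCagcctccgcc
Rps6, chr4:86857348-86857377, minus strand: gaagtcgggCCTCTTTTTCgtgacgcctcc
Rpl38, chr11:114668570-114668599, plus strand: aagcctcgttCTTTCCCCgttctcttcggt
Rpl39, chrX:37085203-37085232, minus strand: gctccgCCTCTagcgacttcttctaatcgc
Rpl7l1, chr17:46782637-46782666, minus strand: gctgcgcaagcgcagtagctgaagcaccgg
Rpl27a had the longest of the printed runs, whereas that of Rpl39 was short and Rpl7l1 had none in this window. Rpl39 and Rpl7l1 are shown because they were called between the media, as described further on.

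Such a run was counted as a C followed by at least 4 bases that are C or T, beginning within 5 bases of the start. It was in 21 of the 50 member windows (42%) and in 18.3% of the 32851 windows of all genes. A counted run can end before the annotated start, as in Rpl19, so that it need not be a TOP motif. The letters CCGGAAG, in which ETS factors find their core sequence, were looked for on both strands from 250 bases before to 50 bases after the start, and were in 20 member windows (40%) against 8.86% of all windows. AAGATGGC, the core of the YY1 motif, was in 4 member windows (8%) against 2.75% of all windows in the same search. The runs of pyrimidines and the reverse of CCGGAAG can overlap, and so can CCGGAAG and AAGATGGC through the letters they share. These counts describe the annotated starts, which can differ from the starts used in these cells.

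The deposited values were MAS5 signals, linear intensities that merge the probes of each probe set, and every array had been scaled to the same trimmed mean of 500.003. Differences are given as NFFSE minus NFFS on the log2 scale and were tested with limma, a linear model fitted over all genes, and a gene was called at an adjusted p under 0.05 (Benjamini-Hochberg). The median signal of the arrays was 56.5 to 65.0 in NFFSE and 66.5 to 70.6 in NFFS. Keratinocyte markers were bright on all arrays, such as Krt5, a keratin of basal cells. Krt5 had 35579 ± 2850 (SD, n = 3) on NFFSE arrays against 28201 ± 2184 (SD, n = 3) on NFFS arrays. It was not called (adjusted p = 0.062, limma). Among 8 such markers, 4 were higher in NFFSE (50%, against 11% of all genes) and 1 was lower (12.5%, against 15.2%). The lower marker was Krt15, a keratin of the bulge, with 5003, 6306 and 9574 in NFFSE and 23092, 28288 and 28316 in NFFS. Its log2 difference of -1.98 (adjusted p = 7.6e-05, limma) was the largest in size among the 8. Of 12 fibroblast and dermal papilla markers, 6 were lower in NFFSE (50%, against 15.2% of all genes) and 0 were higher. Of the 12 differences, 4 were above 0, the largest that of Pdgfra with 1.40 (adjusted p = 0.22, limma). The summed signal of the 12 was 4690 to 5112 on the NFFSE arrays and 9251 to 11944 on the NFFS arrays. Sparc and Fbln1 made up most of it. They had 2171 to 2246 and 1978 to 2342 in NFFSE, against 5706 to 6977 and 2621 to 4146 in NFFS. Of 4 smooth muscle and Schwann cell markers, 2 were lower (50%, against 15.2% of all genes), Tagln and Acta2. Tagln had 23.8, 3.2 and 5.6 in NFFSE and 505, 683 and 703 in NFFS. The difference of Acta2 was -1.59 (adjusted p = 0.0028, limma), but 0.56 with only _at probe sets (adjusted p = 0.63, limma). Of 20 melanocyte, leukocyte and endothelial markers, 0 were called in limma or in the methods' t-test after adjustment, and 1 had an unadjusted p under 0.05 in limma. RNA integrity was read from the Gapdh controls as the log2 signal at the 3' end less that at the 5' end. It averaged -0.37 (SD 0.011, n = 3) on NFFSE arrays against -0.62 (SD 0.017, n = 3) on NFFS arrays, with p = 0.1 in a two-sided exact permutation test, the lowest p possible for 3 against 3. The same measure for Actb differed less and in the opposite direction, with 0.27 (SD 0.019, n = 3) against 0.33 (SD 0.059, n = 3) and p = 0.3 in that exact test. The part of these cell markers and of RNA integrity in the values that follow was not tested. Fewer cells of a type and less RNA per cell cannot be told apart in such samples.

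The messenger RNAs of the ribosomal proteins were among the brightest on the arrays and differed little between the media. Of the 48 genes, 3 were called (6.25%), against 26.2% of all genes. Of these, 2 were higher in NFFSE, Rpl39, a small protein of the large subunit, and Rpl3l, a paralog of Rpl3 known from striated muscle, where 11% of all genes were higher. The third, Rpl7l1, a paralog of Rpl7, was lower, where 15.2% of all genes were lower. The other 45 did not pass the test, and the same 3 genes were those with an unadjusted p under 0.05. The difference was above 0 for 44 genes, with a median of 0.16 (quartiles 0.10 and 0.19), whereas the median of all genes was -0.011. The direction of this small difference depended on the scaling of the arrays. After quantile normalization, which gives all arrays the same distribution of signals, the median was -0.041 and 13 of the 48 differences were above 0. That step also evens out a shift shared by the brightest signals, and 35 of the 48 genes lay at or above the 99th percentile. It therefore cannot tell whether the bright members shifted together. Centering every array on its median signal moved the median of all genes to 0.18 and that of the members to 0.36.

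**Figure D1:**
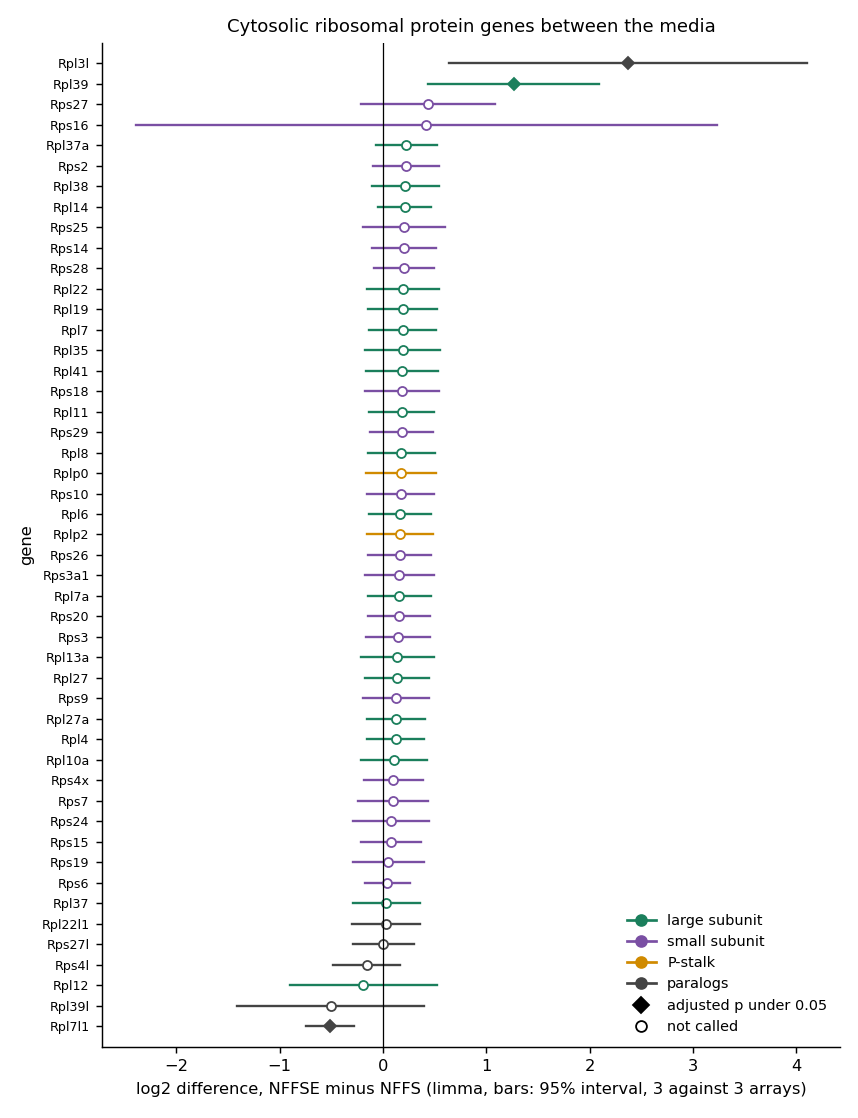
Log2 difference between NFFSE and NFFS (x axis, limma) for each of the 48 genes (y axis, ordered by the difference), with bars for the 95% interval over 3 arrays against 3 and colors for the 4 groups of proteins. Most points lie in a narrow band just above 0 with intervals across 0, and the filled diamonds, Rpl3l and Rpl39 to the right and Rpl7l1 to the left, are the 3 called genes.

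A set of 35 genes lay at or above the 99th percentile of all genes by mean log2 signal. Their differences ran from 0.0054 for Rps27l to 0.23 for Rpl37a, with a median of 0.17 and an SD between the genes of 0.054, which was smaller than the standard error of any single gene (0.12 to 0.17). In limma 0 of the 35 were called (adjusted p = 0.26 to 0.98), 0 had an unadjusted p under 0.05, and 0 were called by the methods' t-test after adjustment. In all 35 the arrays of the media overlapped, where 40.5% of all genes had no overlap. The 95% intervals of these differences reached from -0.30 to 0.55, and with the deposited scaling all 35 lay within 1.5-fold in either direction. This bound depended on the settings. After centering every array on its median, 1 of the 35 intervals lay within 1.5-fold and the widest reached 1.82-fold, and without the intensity trend 14 did. Without 1 array, 13 to 35 did, the fewest without NFFSE array 1. Rps29, a protein of the small subunit, was the brightest gene on each of the NFFS arrays, with 32030, 42785 and 37902, against 38238, 43067 and 45965 on those with EGF. Its difference was 0.18 (adjusted p = 0.40, limma).

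The bright genes varied together from array to array more than between the media. Relative to each gene's mean over the 6 arrays, the median of the 35 genes was -0.086, 0.12 and 0.19 on NFFSE arrays 1, 2 and 3. On NFFS arrays 1, 2 and 3 it was -0.32, 0.15 and -0.062. NFFS array 1 was thus the lowest of the 6 arrays for each of the 35 genes, and the highest was NFFSE array 3 for 23 of them, NFFSE array 2 for 6 and NFFS array 2 for 6. The cells of each repeat had been divided between the media, so that arrays of the same number form a pair. In repeats 1 and 3, NFFSE was above NFFS for all 35 genes, by a median of 0.24 and 0.26. In repeat 2 it was above NFFS for 15 of the 35, with a median of -0.022. Without NFFS array 1, the median of all 48 differences was 0.042, with 35 above 0, and without NFFS array 2 it was 0.28. Without NFFSE array 3 it was 0.10, with 39 above 0. The size of the common difference therefore depended on single arrays of both media.

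**Figure D2:**
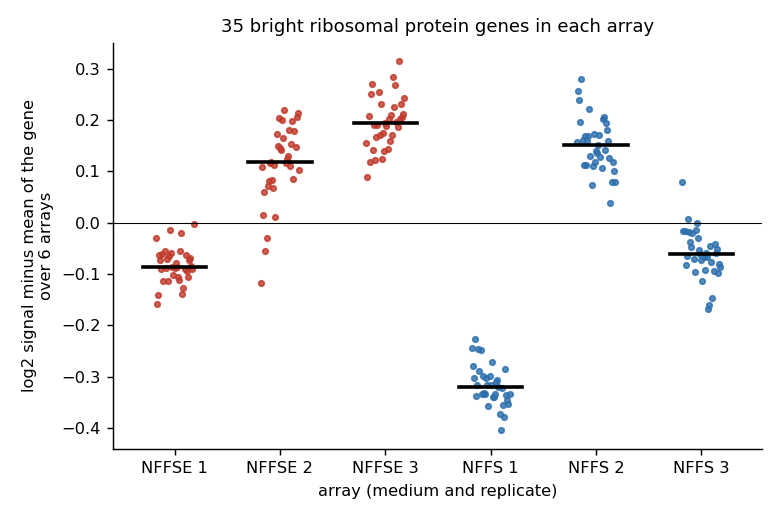
Log2 signal of each of the 35 brightest ribosomal protein genes minus the mean of that gene over the 6 arrays (y axis) on each array (x axis), with 1 point per gene, red for NFFSE, blue for NFFS and a bar at the median. The genes form a tight group on each array, lowest on NFFS array 1 (median -0.32) and highest on NFFSE array 3 (median 0.19).

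Rpl7l1, which belongs to the assembly of the large subunit rather than to the finished ribosome, was lower in NFFSE. Its signal was 2125, 2214 and 2194 in NFFSE, against 2771, 3239 and 3313 in NFFS. All NFFSE arrays were below all NFFS arrays, by 1.42-fold (log2 difference -0.51, SE 0.10, adjusted p = 0.0049, limma). The other 2 probe sets of Rpl7l1 were not called. One of them, almost as bright, had 2389, 2747 and 2518 in NFFSE and 2358, 2754 and 2564 in NFFS, a difference of -0.0034 (adjusted p = 0.99, limma over all probe sets). The dimmer one had a difference of -0.36 (adjusted p = 0.16). The mean of the 3 probe sets gave -0.29 and did not pass the test (adjusted p = 0.081), so that the call rested on the choice of probe set. It was also lost after centering every array on its median (-0.31, adjusted p = 0.10) and without the intensity trend of limma (adjusted p = 0.051).

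Rpl39, which lines the tunnel through which the new protein chain leaves the ribosome, was higher in NFFSE. It had signals of 197, 350 and 245 in NFFSE and of 174, 114 and 61.3 in NFFS. The lowest NFFSE array lay just above the highest NFFS array, and the difference was 1.27 (2.40-fold, SE 0.37, adjusted p = 0.030, limma). The probe set was of middling brightness, near the median of all genes, unlike the probe sets of most members. Rpl39 was also named on probe sets listed with several symbols, which were not read for it. Whether the set used reports the main Rpl39 transcript was not tested. Without NFFSE array 2 the difference was 1.04 (adjusted p = 0.13), and without NFFS array 3 it was 0.87 (adjusted p = 0.079). The call was also lost without NFFSE array 3 (adjusted p = 0.071), without NFFS array 2 (adjusted p = 0.053), without the intensity trend (adjusted p = 0.11), with a floor under low signals (adjusted p = 0.14) and in the methods' t-test (adjusted p = 0.18).

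Rpl3l was called higher in NFFSE but was close to the background. Its signal was 32.4, 29.1 and 11.03 in NFFSE and 2.75, 8.99 and 3.06 in NFFS. The TrpnX controls, whose target mouse cells do not make, reached at most 22.7, and 1 of the 3 NFFSE arrays and all 3 NFFS arrays lay under it, so that no fold is given (adjusted p = 0.048, limma). The call was lost without NFFSE array 1 or 2 and without NFFS array 1 or 3 (adjusted p = 0.12 to 0.15). Rps16 had all 6 arrays under the same value on its only probe set listed with a single symbol, and its level was not measured.

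**Figure D3:**
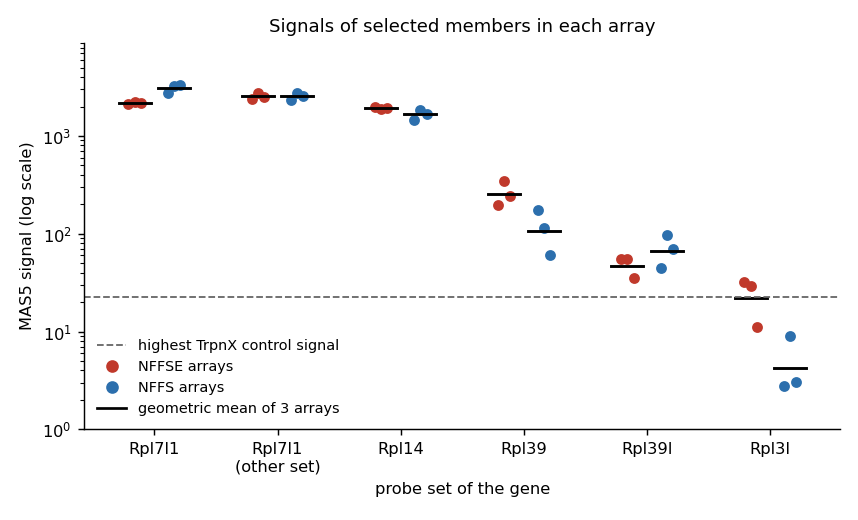
MAS5 signal on a log scale (y axis) of 6 probe sets (x axis) on the 3 NFFSE arrays (red) and the 3 NFFS arrays (blue), with bars for the geometric mean of 3 arrays and a dashed line at the highest TrpnX control signal of 22.7. The media separate for the first Rpl7l1 probe set but not for its other one, and all NFFS points of Rpl3l lie under the line. Signals of different probe sets are not comparable in level.

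Proteins of the large subunit had a median difference of 0.18, with 1 of 20 called (5%, against 26.2% of all genes). Rpl14 was the only other member, besides the 3 called genes, whose arrays did not overlap between the media. Of all genes, 40.5% had no overlap. Rpl14 had 1961, 1882 and 1931 in NFFSE and 1464, 1863 and 1689 in NFFS. Its difference of 0.21 did not pass the test (adjusted p = 0.22, limma), and it is named because of this separation, after its values were seen. After centering every array on its median it was 0.40 and was called (adjusted p = 0.048). Rpl38, which is needed for the translation of Hox messenger RNAs in the mouse embryo, had 32441, 39653 and 39683 in NFFSE and 27077, 37314 and 32153 in NFFS. The arrays overlapped, since NFFS array 2 was above NFFSE array 1, and the difference was 0.22 (adjusted p = 0.33). Rpl11, which binds Mdm2 and stabilizes p53 when ribosome assembly fails, had a difference of 0.18 (adjusted p = 0.41). Rpl13a, which also silences the translation of certain inflammatory messenger RNAs, had 0.14 (adjusted p = 0.60). Rpl27a, in which a mutation of the mouse darkens the skin and lowers growth, had 0.13 (adjusted p = 0.54).

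The P-stalk binds the elongation factors and stimulates their GTPase activity. Rplp0, its base, had 29891, 36076 and 37002 in NFFSE and 25411, 36226 and 30183 in NFFS, with NFFSE array 1 below the highest 2 NFFS arrays. The difference was 0.17 (adjusted p = 0.47, limma). Rplp2 differed by 0.17 as well (adjusted p = 0.46), and 0 of the 2 genes had an unadjusted p under 0.05 or an adjusted p under 0.05 in the methods' t-test.

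Proteins of the small subunit had a median difference of 0.16. In limma 0 of 20 were called, against 26.2% of all genes, and 0 had an unadjusted p under 0.05. In the methods' t-test, 0 passed after adjustment. Rps6, the substrate of the S6 kinases, had 4249, 4232 and 4286 in NFFSE and 3799, 4415 and 4194 in NFFS. The NFFSE arrays lay within the range of the NFFS arrays, and the difference was 0.044 (SE 0.097, 95% interval -0.17 to 0.26). Rps19 and Rps20, in which mouse mutations darken the skin through p53 in keratinocytes, had differences of 0.054 (adjusted p = 0.85) and 0.15 (adjusted p = 0.47). Rps3, which also acts in DNA repair, had 0.14 (adjusted p = 0.52). Rps27 was read from a probe set dimmer than those of most members and was also named on probe sets listed with several symbols, which were not read. It had 513, 291 and 537 in NFFSE and 234, 466 and 297 in NFFS, with arrays of both media interleaved (difference 0.44, SE 0.29, adjusted p = 0.33). Rpsa and Fau, subunit proteins whose names fall outside the symbol rule, had differences of 0.17 (adjusted p = 0.46) and 0.15 (adjusted p = 0.55), close to the median of the members.

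The paralogs as a group had a median difference of -0.076, and 3 of the 6 were above 0. A ratio of 2 genes within an array does not depend on a single scaling factor for that array, though it does on quantile normalization, and each paralog was set against its partner as a log2 ratio per array. For Rpl7l1 and Rpl7 this ratio was -3.70, -3.86 and -3.91 in NFFSE and -3.06, -3.34 and -2.98 in NFFS. All NFFSE ratios were lower, with means of -3.82 ± 0.11 (SD, n = 3) and -3.12 ± 0.19 (SD, n = 3). The ratio used the called Rpl7l1 probe set, not the almost equally bright one that was not called. It differed by -0.70 between the media, and by -0.50 with the mean of all probe sets. For Rpl22l1, which can take the place of Rpl22 in the ribosome, against Rpl22 it was -0.85, -0.77 and -1.02 in NFFSE and -0.70, -0.66 and -0.77 in NFFS. These ratios did not overlap either, but the difference of -0.17 was small. It turned to 0.20 with the mean of all probe sets and was -0.27 with quantile normalization. Both pairs had the smallest p that 3 arrays against 3 allow (p = 0.1 in a two-sided exact permutation test, adjusted p = 0.25 over 5 pairs), so that no pair could pass the threshold. This test did not use the pairing of arrays by repeat.

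The other 3 pairs overlapped between the media. Rpl39l, a paralog best known from testis, had signals of 55.1, 55.0 and 35.01 in NFFSE and 44.9, 96.0 and 70.3 in NFFS, a difference of -0.50 (adjusted p = 0.43, limma), and its ratio to Rpl39 differed by -1.77 (exact permutation test, p = 0.2). Rps4l had a difference of -0.16 (adjusted p = 0.50, limma) and its X-linked partner Rps4x one of 0.10 (adjusted p = 0.64, limma). Rps27l, a target of p53, had 13616, 12801 and 15473 in NFFSE and 11728, 15494 and 14676 in NFFS. Its difference of 0.0054 was the smallest of all members in size. The ratios of Rps4l to Rps4x and of Rps27l to Rps27 differed by -0.26 (exact permutation test, p = 0.3) and -0.43 (exact permutation test, p = 0.2). With quantile normalization they differed by -0.045 and -0.84, and averaging all probe sets gave -0.67 for the first. The ratios to Rpl39 and Rps27 rest on the dimmer probe sets with a single symbol, since both genes are also named on sets with several symbols that were not used.

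The 48 genes had 103 probe sets listed with their symbol alone, and 23 genes had more than 1. Tested over all probe sets, 7 of the 103 were called (6.80%), against 20.4% of all probe sets. Of these, 2 were higher and 5 were lower in NFFSE. Among the 67 probe sets at or above the 99th percentile, 0 were called in limma, and all 67 differences were above 0 (0.00045 to 0.39). The disagreements came from dimmer probe sets. For Rpl22, the 2 bright sets differed by 0.20 and 0.19 and were not called, whereas the third had 2436, 2621 and 2654 in NFFSE and 5353, 4052 and 5000 in NFFS, a difference of -0.89 (adjusted p = 0.00057, limma over all probe sets). The 2 dim sets of Rps20 had differences of -0.60 (adjusted p = 0.0076) and -0.62 (adjusted p = 0.019), against 0.15 and 0.20 in its bright sets. The first of them had 398, 356 and 388 in NFFSE and 568, 544 and 619 in NFFS, with no overlap. A dim set of Rps24 was lower as well, with 48.5, 45.0 and 91.1 in NFFSE and 111, 170 and 330 in NFFS (difference -1.66, adjusted p = 0.018). In Rpl37a a dimmer set was higher, with 1702, 2065 and 1720 in NFFSE and 651, 1426 and 1080 in NFFS (difference 0.86, adjusted p = 0.027). Which transcripts these dimmer sets detect was not tested.

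**Figure D4:**
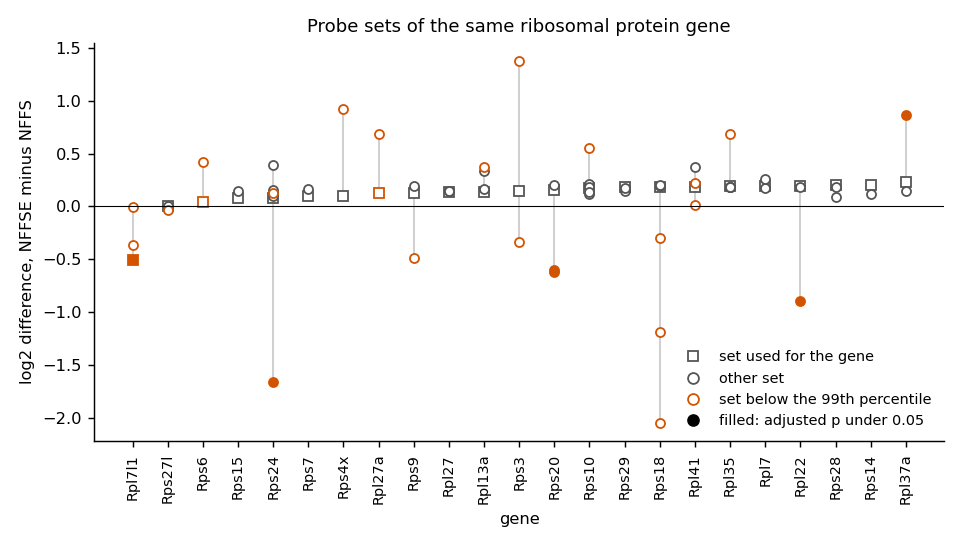
Log2 difference between NFFSE and NFFS (y axis) of every probe set of the 23 genes with more than 1 (x axis). Squares mark the set used for the gene, circles the others, orange sets below the 99th percentile of probe sets and filled symbols an adjusted p under 0.05. Sets at or above that percentile cluster above 0, up to 0.39, and the filled symbols of Rps24, Rps20, Rpl22 and Rpl37a stand apart from the other sets of the same gene.

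Unlike the ribosomal proteins themselves, the factors that assemble ribosomes were often higher in NFFSE. Of 54 nucleolar and ribosome assembly factors, 29 were higher (53.7%, against 11% of all genes) and 1, Rrp1b, was lower, with a median difference of 0.42. Utp4, a part of the small subunit processome, had 2943, 3541 and 2786 in NFFSE and 1059, 1310 and 1252 in NFFS, a difference of 1.35 (2.56-fold, adjusted p = 4.3e-05, limma). Eif6, which keeps the new large subunit from joining too early, was 2.61-fold higher (adjusted p = 0.00011). Nolc1, a nucleolar chaperone of small nucleolar RNPs, was 1.83-fold higher (adjusted p = 0.00042), and Bysl, a factor of small subunit maturation, was 1.72-fold higher (adjusted p = 0.0013). These 4 genes, named for the smallest p of the list, had arrays that did not overlap between the media. Among the 54, the arrays of 32 lay higher in NFFSE and those of 1 lower without overlap, where 40.5% of all genes had none. The count of 29 called higher was 15 without NFFSE array 2, 19 without NFFS array 1 and 19 without NFFS array 3. It was also lower with other settings, at 18 with a floor under low signals, 11 with the methods' t-test after adjustment and 8 without the intensity trend. It was 4 with each array centered on the median of the ribosomal proteins, a scaling chosen after seeing the data that sets each gene relative to them.

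RNA polymerase I and its factors showed no common direction, with 2 of 15 higher (13.3%, against 11% of all genes), 1 lower (6.67%, against 15.2%) and a median of 0.067. Polr1b, its second largest subunit, was 1.59-fold higher (adjusted p = 0.018, limma) and Polr1d, a subunit shared with RNA polymerase III, was 1.51-fold higher (adjusted p = 0.0051). Znrd1, a small subunit of the enzyme, was 1.62-fold lower in NFFSE (adjusted p = 0.0012), and Twistnb did not pass the test (-0.46, adjusted p = 0.060).

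Other messenger RNAs with a TOP motif, such as those of elongation factors, had a median difference of 0.18, near that of the ribosomal proteins, and 3 of 16 were higher (18.8%, against 11% of all genes). These were Hnrnpa1, an RNA binding protein (0.43, adjusted p = 0.012, limma), Eef2, the factor that moves the ribosome along (0.33, adjusted p = 0.041), and Eif3l, a subunit of initiation factor eIF3 (0.29, adjusted p = 0.045). Eif3f, of the same complex, had 0.30 (adjusted p = 0.059). The difference of Hnrnpa1 turned to -0.020 as the mean of its probe sets (adjusted p = 0.92) and to -1.10 with only the _at probe sets (adjusted p = 0.025). Of 25 other initiation factors, 10 were higher (40%, against 11% of all genes) and 0 were lower, with a median of 0.32, although 16 had an unadjusted p under 0.05. Among them, Eif3b was 1.65-fold, Eif2b5 1.62-fold, Eif5 1.59-fold and Eif3c 1.41-fold higher (adjusted p = 0.0024, 0.00044, 0.0015 and 0.0040). The count of 10 was 5 without NFFSE array 2, by the methods' t-test after adjustment and without limma's intensity trend, 17 after centering every array on its median, and 1 with the arrays centered on the median of the ribosomal proteins.

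Of 17 genes of mTORC1 signaling, the S6 kinases and the 4E-BPs, 3 were higher (17.6%, against 11% of all genes) and 4 were lower (23.5%, against 15.2%). Sesn3, which inhibits mTORC1, had 469, 470 and 517 in NFFSE and 4021, 2338 and 3870 in NFFS. It was 6.83-fold lower with EGF (adjusted p = 6.2e-06, limma). Sesn1, of the same family, was 2.37-fold lower (adjusted p = 0.00061). The remaining sestrin, Sesn2, was 1.87-fold higher (adjusted p = 0.0077), and is named here to complete the family. Pdcd4, an inhibitor of initiation factor eIF4A and a target of S6 kinase, was 1.83-fold lower (adjusted p = 0.00087). Ddit4, another inhibitor of mTORC1, was 2.82-fold higher (adjusted p = 7.7e-05). Inhibitors of mTORC1 thus moved in both directions. The p90 ribosomal S6 kinases Rps6ka3 and Rps6ka6 had differences of -0.21 each (adjusted p = 0.39 and 0.27) and Rps6ka5 one of 0.31 (adjusted p = 0.50).

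Of 10 genes of ribosome rescue and quality control, 5 were higher in NFFSE (50%, against 11% of all genes), with a median difference of 0.30. They included Nemf and Ltn1, which act on the stalled large subunit and its nascent chain (1.35-fold, adjusted p = 0.0089, and 1.46-fold, adjusted p = 0.014, limma). Zfp598, which senses collided ribosomes, was 1.35-fold higher (adjusted p = 0.035), and Abce1, which splits the subunits, was 1.29-fold higher (adjusted p = 0.036), although the mean of the probe sets of Abce1 gave -0.71 (adjusted p = 0.29). Of 76 mitochondrial ribosomal proteins, 10 were higher (13.2%) and 6 were lower (7.89%), with a median of 0.086. Of 40 proteasome subunits, another large complex of matched parts, 7 were higher (17.5%) and 3 were lower (7.5%), with a median of 0.20. These shares stand against 11% higher and 15.2% lower over all genes.

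**Figure D5:**
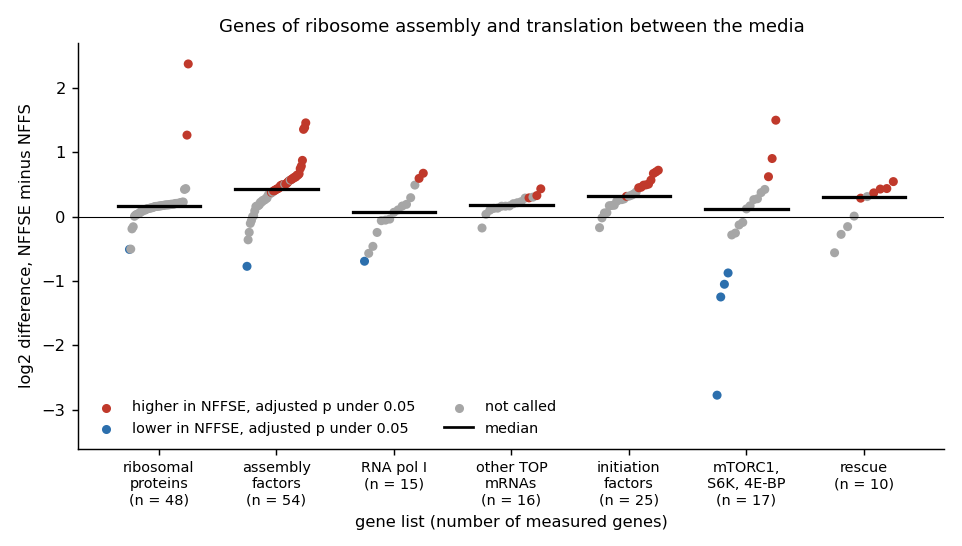
Log2 difference between NFFSE and NFFS (y axis) of each measured gene of 7 lists (x axis), with red for genes higher and blue for genes lower in NFFSE at an adjusted p under 0.05, gray for genes not called and a bar at the median. The ribosomal proteins lie close to their median of 0.16, whereas the assembly factors spread upward around a median of 0.42 with 29 of 54 in red.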

How the data were processed

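The deposited intensity values are the authors' MAS5 signals for 45101 probe sets of an Affymetrix mouse array, hybridized with cRNA from 100 ng of total RNA per culture. The submitters' processing notes name MAS5 without a version. Scaling by the authors gave all arrays an equal mean once the lowest and highest 2% of signals are set aside. The doses and ages come from the study's methods. The kit for RNA was the RNeasy mini kit per the labels and the RNeasy Plus micro Kit per the methods.

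Control probe sets (64) were left out, 34945 probe sets were listed with 1 symbol, 932 with several and 9160 were not listed. Each gene was read from its one-symbol probe set with the highest mean log2 signal. Probes can also catch transcripts of near-identical genes, pseudogenes included. In R 4.3.3, limma 3.58.1 was fitted to log2 signals (intensity trend, all 6 arrays), with p adjusted over 18193 genes. The number of arrays limits the precision. In data simulated over 18193 genes, 36 of 100 genes changed by 1 on the log2 scale and 56 of 100 changed by 2 were recovered. Only these genes were changed, and they were drawn at any brightness, whereas 26.2% of all genes were called in the data. The simulation thus does not give the share that would be recovered here, nor that for the bright members. Means and SDs refer to linear signals and folds to antilogs of log2 differences. Background was set at 22.7 or less, the maximum over 18 TrpnX values, after the data had been seen.

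The members and lists were chosen with earlier results of these data known. The members named are the P-stalk, the paralogs with their partners, genes with a known mouse mutant or a role outside the ribosome, and those past the threshold. Of other lists, up to 4 genes with the smallest p are named. Other names were chosen after their values were seen. Exact tests used SciPy 1.17.1 with Python 3.11.15 and took the arrays as unpaired.

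Arrays of the same replicate number were treated as pairs because the series design states that the cells were divided between the media in each repeat. Deviations from the group means over all genes correlated at 0.066, 0.042 and 0.037 for arrays of the same number, and at -0.041 to -0.0017 for others. The pairs entered as a block in an alternative. Other alternatives were median centering, quantile normalization, the mean of all probe sets, only _at probe sets, a filter on genes below the 40th percentile, a floor of 32, 16 added to the signals, no intensity trend, the methods' t-test, leaving out each array and centering on the members' median, the last chosen after seeing the data.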

Additional observations from a re-analysis of the deposited data

How the results depend on the processing

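Against 2 members higher and 1 lower in NFFSE, the alternatives gave the following. Members higher in NFFSE numbered 3 with the arrays centered on their medians, Rpl14 (0.40, adjusted p = 0.048, limma) being the third. They numbered 1 with quantile normalization, with only _at probe sets (25 members), with the filter on dim genes (45 members) and with the unadjusted methods' t-test. They numbered 0 with the floor, without the intensity trend, with the adjusted methods' t-test and with the arrays centered on the median of the members, and 0 to 2 without 1 array. Members lower in NFFSE numbered 0 with the arrays centered on their medians, with the mean of all probe sets and without the trend, and 3 with only _at probe sets. The median log2 difference of the members was -0.041 with quantile normalization and 0.042 to 0.28 without 1 array. Over all genes, those higher in NFFSE numbered 3013 with the arrays centered on their medians, 1323 without the trend, 1262 with the adjusted methods' t-test and 957 with centering on the members, and those lower numbered 1702 with the adjusted t-test. Ribosome assembly factors higher in NFFSE numbered 18 with the floor, 8 without the trend, 11 with the adjusted t-test, 4 with centering on the members and 15 to 31 without 1 array. Initiation factors higher in NFFSE numbered 17 with the arrays centered on their medians, 5 without the trend, 5 with the adjusted t-test, 1 with centering on the members and 5 to 15 without 1 array. The replicate block gave 2 members higher and 1 lower, 2171 genes higher and 2967 lower, 31 assembly factors and 13 initiation factors higher, and Rpl7l1 at -0.51 (adjusted p = 0.0035, limma). The causes of these changes were not tested.

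Log2 differences of named genes changed sign as follows. Centering on the members' median puts members on both sides of 0 by construction, with 22 of the 48 above 0. The signs in that setting only give the place of a member relative to the others. Quantile normalization likewise evens out a shift shared by the brightest genes. With quantile normalization they were -0.045 for Rplp0, -0.013 for Rplp2, -0.0069 for Rpl7, -0.26 for Rpl22l1, -0.10 for Rps4x, -0.25 for Rps27l, -0.20 for Rps19, -0.038 for Rps20, -0.11 for Rpl11, -0.00030 for Rps6, -0.062 for Rpl13a, -0.091 for Rps3, -0.044 for Rpsa and -0.10 for Fau. Centered on the members' median they were -0.0013 for Rplp2, -0.14 for Rpl22l1, -0.066 for Rps4x, -0.16 for Rps27l, -0.11 for Rps19, -0.014 for Rps20, -0.041 for Rpl27a, -0.12 for Rps6, -0.029 for Rpl13a, -0.022 for Rps3 and -0.018 for Fau. With the mean of all probe sets they were -0.17 for Rpl22, -0.010 for Rps27l, -0.22 for Rps20, -0.020 for Hnrnpa1, 0.087 for Rps6ka3, -0.71 for Abce1, 0.38 for Tyrp1 and 0.58 for S100b. With only _at probe sets they were -0.62 for Rps20, -0.34 for Rps3, -1.10 for Hnrnpa1 and 0.56 for Acta2. Centering on medians gave 0.036 for Rps4l, and the floor gave 0 for S100b and Myh11. Without 1 array, Rpl22l1 ranged from -0.11 to 0.16, Rps27l from -0.12 to 0.085, Rps19 from -0.084 to 0.19 and Rps6 from -0.016 to 0.093.

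Signals near the background, such as those of Rpl3l, carry little information on size, and no scanner values were used here, so that background correction could not be varied.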

Other observations

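A further 110 probe sets were listed with several symbols of which at least 1 met the symbol rule. They held 43 such symbols, of which 28 had no probe set of their own. These probe sets were given no name, since their signal cannot be assigned to 1 gene. In the limma fit over all probe sets, 1 of the 110 was higher and 2 were lower in NFFSE, where 20.4% of all probe sets were called. The median difference of the 110 was 0.17 (quartiles 0.11 and 0.21). Of the 78 among them at or above the 99th percentile, 77 had a difference above 0, with a range of -0.015 to 0.40, and 0 were called (lowest adjusted p = 0.089).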
